A study of Mus musculus with 22 samples.

Results

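The transcripts of 10 enzymes that handle ethanol (EtOH) and its products were followed in single mouse astrocytes. The 10 genes were chosen by symbol for their known roles: Adh5, Cyp2e1 and Cat for the oxidation of ethanol, Aldh2, Aldh1b1, Aldh1a1, Aldh3a2, Aldh7a1 and Aldh9a1 for the oxidation of acetaldehyde and other aldehydes, and Acss2 for the use of acetate. All 10 were among the 23453 gene symbols counted. The cells came from primary cultures of cortex from single C57BL/6 pups (P0 to P1), in which shaking and cytosine arabinoside had been used against other cell types. No transgene or deletion was involved, and every cell, also those without a response, had been given EtOH. Each astrocyte had been imaged for its calcium response to EtOH, sorted by it and aspirated with a micropipette. There were 6 S-type cells (a sustained rise), 6 T-type cells (a transient rise), 5 M-type cells (a mixed pattern) and 5 NR cells (no response).

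Ethanol is oxidized to acetaldehyde, acetaldehyde to acetate, and acetate is joined to coenzyme A. In the liver the first step is mainly the work of class I alcohol dehydrogenase. In brain, catalase and the microsomal enzyme CYP2E1 are the enzymes usually named for it, and mitochondrial ALDH2 is the main enzyme for acetaldehyde. ADH5, the class III alcohol dehydrogenase, acts chiefly on formaldehyde bound to glutathione and takes ethanol poorly. Most members of the aldehyde dehydrogenase family also serve other substrates, among them retinal, fatty aldehydes and the aldehydes of lysine and polyamine breakdown.

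The labels do not say from which pup or dish a cell was taken, so each response type counted as 1 sample. Differences between types are therefore given as measured sizes with no test. A normalized count is the read count of a cell divided by its size factor, and a type's level is the mean of that over its cells. A 95% interval beside a log2 ratio of levels covers the counting of reads only, and reads amplified without molecular identifiers are not independent molecules. The libraries held 2937786 to 22131076 reads, with size factors from 0.183 to 2.31. The T-type cells J162_16 and J163_18 had the smallest size factors, 0.276 and 0.183, and the fewest genes with a read, 6319 and 7442. All 12 astrocyte markers had reads in each type and took 0.105% to 1.25% of the reads of a cell, with type medians of 0.67% in NR, 0.41% in S-type, 0.322% in M-type and 0.237% in T-type. The 13 microglial markers took at most 0.0216% (in an NR cell), with medians of 0.0078% in NR, 0.00114% in T-type and at most 6.44e-05% in the other 2 types. Other lists reached higher shares, the 10 markers of the oligodendrocyte lineage at most 0.333% (in a T-type cell) and the 8 of mural cells and fibroblasts at most 0.741% (in an S-type cell). The 6 markers of dividing cells took up to 0.632% in S-type and 0.355% in T-type (medians 0.0544% and 0.0317%). In these types Mki67 was at levels of 4521 and 11.1 normalized counts and Pcna at 11100 and 7779. Mcm5 alone of the 6 was higher in T-type, at 392 in S-type and 704 in T-type. The 10 neuronal markers took up to 0.205% in S-type and 0.0336% in T-type (medians 0.0231% and 0.0022%), with Stmn2 at 7330 and 651. Other neuronal markers went the other way, with Tubb3 at 110 in S-type and 410 in T-type and Syt1 at 0.784 and 157. The part of these shares in any difference below was not tested. Every NR cell had Y-linked reads (158 to 9817) and at most 2 Xist reads. By contrast, J150_3, J151_5 and J154_8 of S-type, J162_16 and J163_18 of T-type and J175_18 of M-type had 382 to 23017 Xist reads. Those cells had at most 4 Y-linked reads. The contrasts with NR thus also differ in sex-linked reads, and the part of this was not tested.

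The start regions of 8 of the 10 genes were found in the RefSeq promoter table for GRCm38.p6. Aldh2 and Aldh7a1 were not matched. Shown here are the 250 bases before the start of Adh5 and Aldh9a1, the 2 genes at least 2-fold higher in T-type than in both S-type and NR. For Cyp2e1, which was nearly unread, 30 bases before its RefSeq start are shown. The GENCODE gene starts further upstream, and 80 of the 250 bases before the RefSeq start, those shown included, lie in a GENCODE exon. All 3 lie on the plus strand, and capitals mark 3 motifs searched on both strands. These were TATAAA of the TATA box, GGGCGG of the GC box, and the CCAAT box, and no motifs overlap in the stretches shown.
Adh5, chr3:138442843-138443092: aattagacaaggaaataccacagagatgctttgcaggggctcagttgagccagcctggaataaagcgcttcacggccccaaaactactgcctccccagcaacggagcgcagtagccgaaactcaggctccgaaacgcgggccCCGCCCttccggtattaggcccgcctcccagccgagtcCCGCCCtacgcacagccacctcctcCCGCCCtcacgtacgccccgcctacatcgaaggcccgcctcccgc
Aldh9a1, chr1:167349741-167349990: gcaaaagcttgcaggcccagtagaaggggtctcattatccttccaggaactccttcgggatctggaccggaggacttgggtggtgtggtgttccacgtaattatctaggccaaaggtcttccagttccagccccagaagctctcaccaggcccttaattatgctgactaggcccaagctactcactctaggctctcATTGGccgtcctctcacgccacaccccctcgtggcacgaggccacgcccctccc
Cyp2e1, chr7:140763778-140763807: aacgacacgtTATAAAatccttgtttctcc
The Adh5 window held 3 copies of GGGCGG and 21 CpG dinucleotides. The median over 32851 mouse promoters of the same length was 6 CpG dinucleotides, with quartiles of 2 and 16. The Aldh9a1 window held 8 CpG dinucleotides and 1 copy of CCAAT. In the 250 bases before the RefSeq start of Cyp2e1 there were 2 CpG dinucleotides, and TATAAA began at position -31. TATAAA was present in 12.4% of all these windows, GGGCGG in 32.7% and CCAAT in 33.8%. These matches describe letters only.

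The enzymes differed widely in abundance, and the order of their levels was compared per kilobase of exon, taking the union of a gene's annotated exons. Averaged over the 22 cells, Aldh1a1 stood highest at 1590 normalized counts per kb, above 96.1% of the 11945 genes ranked. Adh5 followed at 628 normalized counts per kb, then Aldh7a1 at 329, Cat at 258 and Aldh3a2 at 138. Aldh2, the enzyme usually named first for acetaldehyde, reached 97.6 normalized counts per kb and stood above 62.1% of the genes. Acss2 reached 87.0, Aldh9a1 72.1 and Aldh1b1 6.98 normalized counts per kb. Cyp2e1 was at the bottom of the 10 with 0.0377 normalized counts per kb. The genes ranked were those with an exon length and a read in at least 5 cells. This leaves out Cyp2e1 and other rarely read genes, so no place among all genes is given for it. Reads were found in every cell for 4 of the 10 genes, which were Adh5, Aldh2, Aldh1a1 and Aldh9a1.

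**Figure D1:**
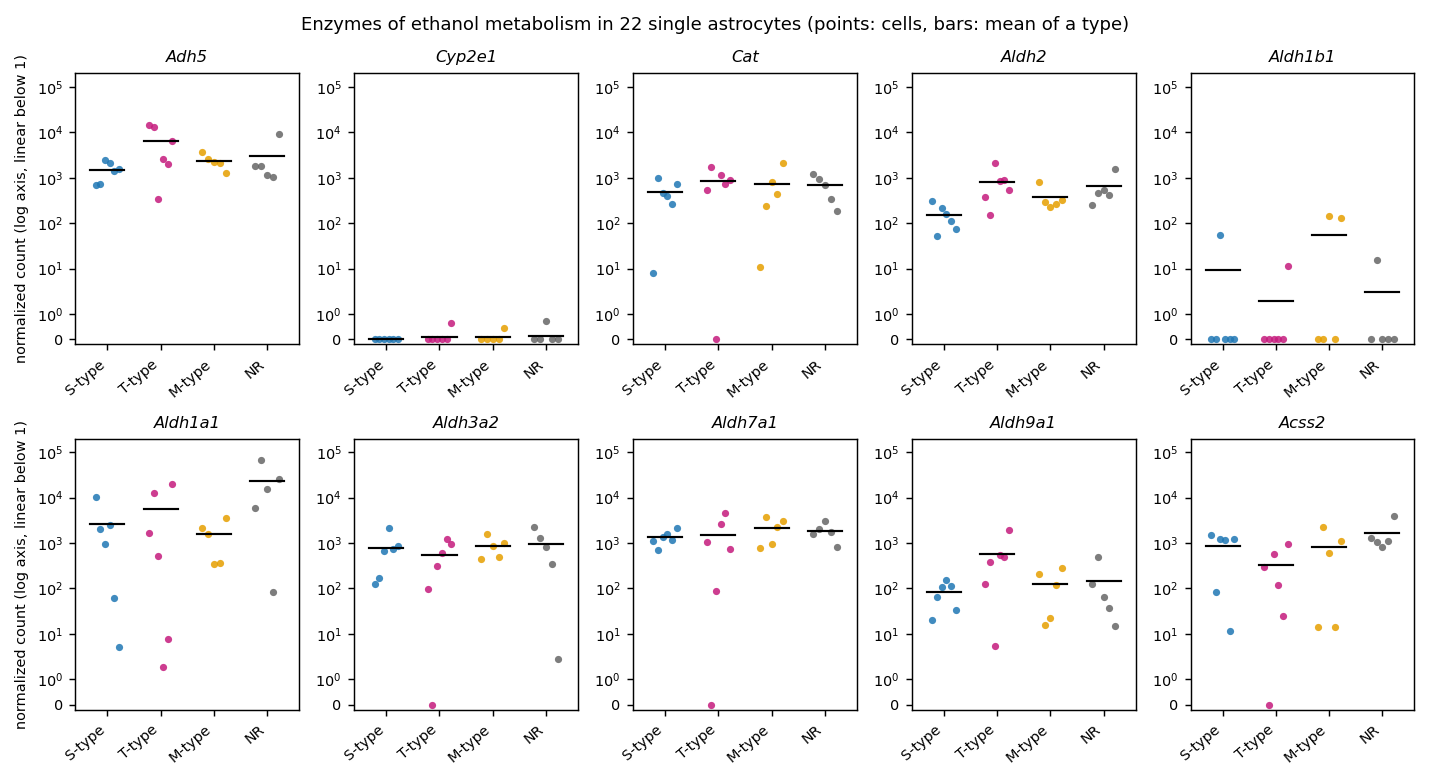
Normalized count of each enzyme in each cell, by response type, on a log axis that is linear below 1. Points are cells and bars are the mean of a type, and the cells of every pair of types overlap for each of the 10 enzymes.

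Across the 9 enzymes with a read in at least 5 cells, T-type held the highest level for 4 (Adh5, Cat, Aldh2 and Aldh9a1), NR for 3 (Aldh1a1, Aldh3a2 and Acss2) and M-type for 2 (Aldh1b1 and Aldh7a1). S-type held the lowest level for 5. In all 60 comparisons of 1 enzyme between 2 types the cells of the types overlapped, so no neighboring levels in any of these orders lay beyond the spread of the cells. Non-overlap was rare among all genes too. It was seen in 0.783% of the genes tested for T-type versus S-type, 1.01% where T-type was set against NR, 0.412% for S-type versus NR and 0.602% for M-type versus NR.

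Adh5 (chr3:138443093-138455499, plus strand, GRCm38) was the only enzyme of the first step with reads in every cell. Its normalized count in T-type ran from 333 in J163_18 through a median of 4493 to 14647 in J161_9. In S-type it ran from 695 through a median of 1486 to 2478. Thus 4 of the 6 T-type cells lay above every S-type cell, while J163_18 lay below all of them. The M-type cells had 3712, 2576, 2183, 2152 and 1264, and the NR cells 1843, 1846, 1177, 1042 and 9034. NR was thus tight except for J187_6, which took 60.5% of the summed NR level. The T-type level of 6480 was higher than the S-type level of 1508 by a log2 ratio of 2.10 (95% interval 2.07 to 2.13) and than the NR level of 2988 by 1.12 (1.09 to 1.14). With 1 cell left out, the first ratio stayed between 1.68 and 2.35 and the second between 0.70 and 2.13. On the CPM scale (reads per 1e6 counted reads of a cell) the T-type lead was smaller, 1.22 over S-type and 0.55 over NR, the latter under 2-fold. With libraries thinned to equal depth these were 1.23 and 0.58. The S-type level was lower than that of NR by a log2 ratio of -0.99, but without J187_6 the ratio was 0.03, and M-type versus NR went from -0.33 to 0.69.

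Cyp2e1 (chr7:140763739-140774987) was represented by 3 reads in the whole data set (exact 95% Poisson interval 0.619 to 8.77 reads). There was 1 read each in the T-type cell J166_25, the M-type cell J176_25 and the NR cell J185_4. The 6 S-type cells had 0 reads, which allows an S-type level of up to 0.402 normalized counts (3 reads over the type). These counts give no comparison between types. The 5 proteins that pass electrons to microsomal enzymes were read in most cells, with Cyb5, cytochrome b5, at a mean of 6899 normalized counts and Por, the P450 reductase, at 83.0.

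Cat (chr2:103453849-103485160, minus strand), which can oxidize ethanol with hydrogen peroxide in the peroxisome, differed little between types. Its T-type cells ran from 0 in J163_18 through a median of 814 to 1723, and its S-type cells from 7.99 in J150_3 through a median of 431 to 1008. M-type had 10.6, 236, 794, 438 and 2076, and NR had 1190, 960, 702, 342 and 190. A single cell in each of S-type, T-type and M-type was nearly or wholly without catalase reads, and no NR cell was. The log2 ratio of levels was 0.82 (0.75 to 0.88) for T-type versus S-type. Against NR it was 0.31 for T-type, -0.51 for S-type and 0.07 for M-type. Thus in no contrast did Cat reach 2-fold with all cells, although T-type versus S-type was 1.18 without J151_5 and 1.08 without J163_18. The sign against NR turned for T-type without J162_16 (-0.035) and for M-type without J176_25 (-0.87).

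Among the aldehyde dehydrogenases, Aldh2 (chr5:121566027-121593824, minus strand) was lowest in S-type. The 6 S-type cells ran from 50.9 through a median of 135 to 307 normalized counts. The T-type cells ran from 152 in J162_16 through a median of 708 to 2100 in J163_18. M-type had 815, 286, 230, 263 and 317, and NR had 255, 461, 537, 428 and 1569. In S-type, 5 of the 6 cells lay below every NR cell, and 5 of the 6 T-type cells lay above every S-type cell. The S-type level of 153.3 was lower than that of NR (650) by a log2 ratio of -2.08 (-2.18 to -1.99) and lower than that of T-type (822), with T-type versus S-type at 2.42 (2.33 to 2.52). Left out 1 at a time, no cell brought either ratio under 2-fold, with ranges of -2.41 to -1.46 and of 1.89 to 2.75. The log2 ratio of T-type versus NR was 0.34 (0.97 without J187_6 and -0.20 without J163_18). That of M-type versus NR was -0.77 (-1.25 without J172_23 and -0.14 without J187_6). An exon of Aldh2 shares 130 bases with Gm42879 on the other strand, and whether the counting used the strand is not given in the sources used here.

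Aldh1b1 (chr4:45799022-45804604, plus strand), a mitochondrial relative of Aldh2, was read in 5 of the 22 cells. The counts were 90 reads in J153_6 (S-type), 18 in J166_25 (T-type), 307 in J174_13 and 294 in J176_25 (M-type), and 27 in J183_1 (NR). All other cells had 0 reads. J153_6 and J174_13 were also the cells with over 10 CPM of Xist and also over 10 CPM of Y-linked transcripts (Ddx3y, Eif2s3y, Kdm5d, Uty). The first had 837 Xist reads and 3737 Y-linked reads, and the second had 1400 and 1333. The log2 ratio of M-type versus NR was 4.14 (3.59 to 4.76) and was 3.37 without J174_13 and 6.71, against the floor of 3 reads, without J183_1. All 4 contrasts thus rested on single cells in at least 1 type. T-type versus S-type was -2.25 and became 1.90 against the floor of 3 reads without J153_6, and S-type versus NR was 1.58 and became -2.57.

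Aldh1a1 (chr19:20492715-20643465, plus strand), a cytosolic enzyme known for making retinoic acid from retinal, had the widest range of the 4 enzymes read in every cell. It ran from 1.82 normalized counts, a single read, in the T-type cell J164_19 to 66893 in the NR cell J183_1, where 117934 reads were counted. S-type cells ran from 5.19 through a median of 1503 to 10113, and T-type cells from 1.82 through a median of 1088 to 19748. M-type had 2174, 1620, 353, 361 and 3582, and NR had 6015, 66893, 15642, 83.7 and 25967. In 4 of the 5 NR cells the gene was above every M-type cell, whereas J186_5 was below all of them. The NR level of 22920 was the highest, with log2 ratios of -2.004 (-2.02 to -1.99) for T-type, -3.13 (-3.15 to -3.11) for S-type and -3.82 (-3.85 to -3.80) for M-type versus NR. Without J183_1 these were -1.06, -2.19 and -2.88. The T-type lead over S-type, 1.13, rested on J166_25 and was 0.15 without it, and the ratio of medians over cells was -0.47. The shares of astrocyte and of microglial markers were also highest at the median in NR, and their part in the Aldh1a1 levels was not tested. Nor was the split of reads between Aldh1a1 and its close relative Aldh1a7.

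Aldh3a2 and Aldh7a1 stayed under 2-fold between the types compared. Aldh3a2 (chr11:61223417-61267464, minus strand), the fatty aldehyde dehydrogenase, had levels from 537 in T-type to 941 in NR. Its cells ran from 123 to 2194 in S-type, from 0 to 1257 in T-type, from 442 to 1579 in M-type and from 2.78 to 2226 in NR. Aldh7a1 (chr18:56509687-56572951, minus strand), the antiquitin of lysine breakdown, had levels from 1353 in S-type to 2190 in M-type. Its S-type cells lay between 716 and 2146, whereas the T-type cells ran from 0 to 4621. With all cells no contrast reached 2-fold for either gene, with log2 ratios from -0.81 to -0.12 for Aldh3a2 and from -0.45 to 0.24 for Aldh7a1. With 1 cell left out, however, T-type versus NR for Aldh3a2 passed 2-fold without J165_23 (-1.26), J166_25 (-1.04), J186_5 (-1.02) or J187_6 (-1.13). For Aldh7a1 it did so without J165_23 (-1.02). T-type versus S-type for Aldh3a2 was -1.01 without J165_23 and 0.063 without J154_8. Both genes were without a read in J162_16. Exons of Aldh7a1 share up to 300 bases with Phax on the other strand.

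Aldh9a1 (chr1:167349991-167368532, plus strand), which oxidizes aminobutyraldehyde from polyamines, had the largest T-type lead of the 10 genes. Its T-type cells ran from 5.45, a single read, in J163_18 through a median of 432 to 1955 in J166_25. S-type cells ran from 20.4 through a median of 85.9 to 155.9. M-type had 205, 16.1, 22.0, 118 and 280, and NR had 128, 485, 64.7, 37.1 and 14.8. In T-type 4 of the 6 cells lay above every S-type cell, whereas 2 lay above every NR cell. The log2 ratio was 2.83 (2.70 to 2.95) for T-type versus S-type and 2.00 (1.91 to 2.09) for T-type versus NR. J166_25 held 55.9% of the summed T-type level, and its removal gave ratios of 1.91 and 1.08. They were 3.24 and 2.42 without J162_16 and J163_18. S-type versus NR was -0.83 and M-type versus NR -0.19, and without J183_1 these were 0.43 and 1.07.

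Acss2 (chr2:155517948-155585724, plus strand), the cytosolic and nuclear enzyme that turns acetate into acetyl-CoA, was lowest in T-type. The T-type cells ran from 0 in J162_16 through a median of 211 to 971, and the S-type cells from 11.8 in J155_9 through a median of 1205 to 1471. M-type had 14.4, 2271, 593, 14.5 and 1135, and NR had 1292, 1080, 820, 1139 and 3863. The NR cells all carried the transcript, and 5 of the 6 T-type cells lay below every one of them. In 6 cells the count was less than 1 part in 10 of the median over all cells, with 2 of these each in S-type, T-type and M-type and 0 in NR. The T-type level of 333 was lower than that of NR (1639) by a log2 ratio of -2.30 (-2.37 to -2.23) and than that of S-type (870) by -1.39 (-1.46 to -1.31). The ranges with 1 cell left out were -2.998 to -1.70 and -2.09 to -1.12. For M-type versus NR the ratio was -1.02, and it was -0.43 without J187_6. For S-type versus NR these were -0.91 and -0.315. Exons of Acss2 share up to 395 bases with genes on the other strand, among them Gss and Ggt7.

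**Figure D2:**
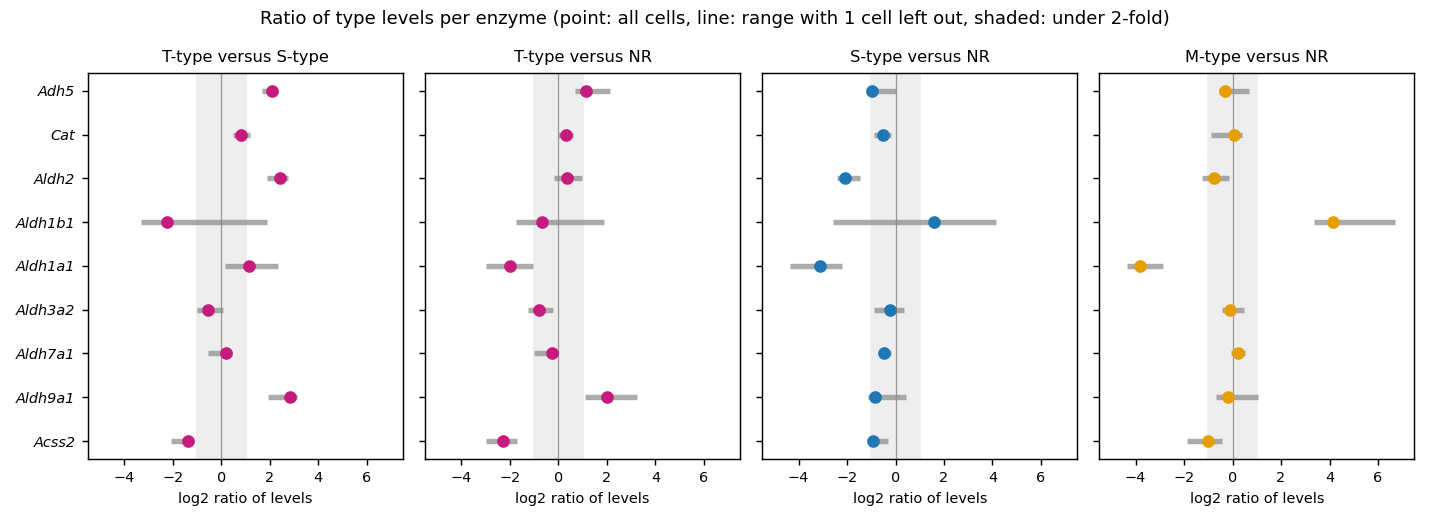
Log2 ratio of type levels for the 9 enzymes with a read in at least 5 cells, in 4 contrasts. Points use all cells, lines span the ratios with 1 cell left out and the shaded band is under 2-fold. Adh5, Aldh2 and Aldh9a1 stay right of the band for T-type versus S-type, while the lines of Aldh1b1 cross 0 in 3 of the 4 contrasts.

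The number of enzymes past 2-fold is set here beside the share of all genes tested past the same limit. For T-type versus S-type 4 of 9 were at least 2-fold higher (Adh5, Aldh2, Aldh1a1 and Aldh9a1) where 25.7% of 12517 genes were, and 2 of 9 at least 2-fold lower (Aldh1b1 and Acss2) where 32.5% were. For T-type versus NR 2 of 9 were higher (Adh5 and Aldh9a1) against 28.4% of all genes, and 2 of 9 lower (Aldh1a1 and Acss2) against 32.8%. For S-type versus NR 1 of 9 was higher (Aldh1b1) against 25.1%, and 2 of 9 lower (Aldh2 and Aldh1a1) against 22.5%. For M-type versus NR 1 of 9 was higher (Aldh1b1) against 19.8%, and 2 of 9 lower (Aldh1a1 and Acss2) against 28.1%. The 3 contrasts with NR share its 5 cells, and the T-type contrasts share its 6 cells.

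The median log2 ratio of the 9 enzymes was 0.82 for T-type versus S-type, where the median of all genes was -0.09. It was -0.28 for T-type versus NR, -0.83 for S-type versus NR and -0.19 for M-type versus NR, beside -0.07, 0.03 and -0.20 for all genes. Without J162_16 and J163_18 the counts for both T-type contrasts were still 4 and 2, and 2 and 2. At that setting 21.7% of all genes were higher and 36.3% lower versus S-type, and 24.0% and 36.4% versus NR. The enzymes' median versus NR turned from -0.28 to 0.04. Without J153_6, which loses the S-type reads of Aldh1b1, S-type versus NR had 0 of 9 higher and 5 of 9 lower, where 25.6% and 24.5% of all genes were.

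**Figure D3:**
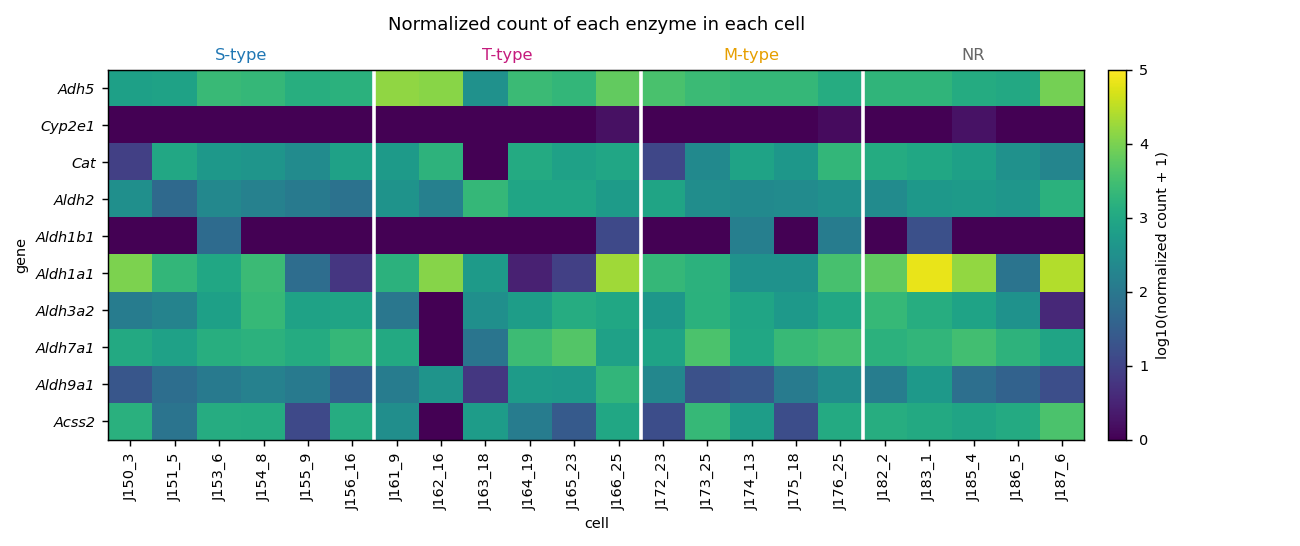
Log10 of the normalized count plus 1 for the 10 enzymes (rows) in the 22 cells (columns, grouped by type). Dark cells mark counts at or near 0, as in J162_16 for Aldh3a2, Aldh7a1 and Acss2, and in most columns for Cyp2e1 and Aldh1b1.

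From cell to cell, pairs of enzymes ranged from moderately opposed to moderately alike. Over the 22 cells, the 36 pairs of the 9 enzymes had Spearman coefficients from -0.429 to 0.622 with a median of 0.127. The closest pairs were Cat with Aldh9a1 (rho 0.622, Pearson r of log2 counts 0.549) and Aldh3a2 with Aldh7a1 (rho 0.584, r 0.74). Without J162_16 and J163_18 these were rho 0.531 and 0.474. Aldh9a1 and Acss2 were the most opposed (rho -0.429, and -0.468 without the same 2 cells). The cells share depth and size factors with every gene in them, and these coefficients are descriptions. Pairs of other genes were not measured for comparison. Aldh1b1, with reads in 5 of the 22 cells, entered its pairs with mostly tied values.

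For the 4 enzymes read in every cell, the gene with the most similar order of cells was sought among 11550 others. It was Rnf34 for Adh5 (rho 0.793), Atp5b for Aldh2 (0.774), Ctsb for Aldh1a1 (0.758) and Map1lc3a for Aldh9a1 (0.844). Atp5b encodes a subunit of the mitochondrial ATP synthase, Ctsb the lysosomal protease cathepsin B and Map1lc3a a protein of the autophagosome. Without J162_16 and J163_18 the coefficients were 0.732, 0.812, 0.737 and 0.856, from the remaining cells of the same set and so no separate check. Each partner was picked as the highest of 11550 coefficients over few cells, and such a maximum can be high by selection alone. No link between the genes is read from these values.

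Of the alcohol dehydrogenases outside the 10, no read of Adh1, Adh4 or Adh7 was found in any cell, and Adh6a had 1 read. These include the class I enzyme of the liver. Adhfe1, which oxidizes hydroxy acids, was read in every cell. Its T-type level of 2615 stood above 772 in S-type and 729 in NR, but it rested on J162_16, and without that cell the log2 ratios were -0.28 and -0.20. Adh5 was thus the only classical alcohol dehydrogenase counted here with more than 1 read.

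The other aldehyde dehydrogenases were mostly lower in T-type. Of 9 tested, 7 were at least 2-fold lower in T-type than in S-type, and 5 than in NR, beside the 32.5% and 32.8% of all genes given above. Without J162_16 and J163_18 the counts were 5 and 6 of 9, beside 36.3% and 36.4% of all genes. Versus S-type, leaving out 1 cell brought several under 2-fold. These were Aldh1l2 (-0.79) and Aldh5a1 (-0.67) without J154_8, Aldh3b1 (-0.35) without J150_3 and Aldh4a1 (-0.75) without J163_18. Aldh1a7, Aldh16a1 and Aldh18a1 stayed past 2-fold, the last 2 with 19 and 41 T-type reads. Versus NR, Aldh1l2 was at -0.87 without J187_6 and Aldh18a1 at -0.90 without J185_4. Aldh1a7, a close relative of Aldh1a1 in sequence, was at 81.5 in T-type and at 2181 in NR. Its T-type cells ran from 0 through a median of 42.1 to 222, and its NR cells from 571 through a median of 1626 to 5277, so the 2 types did not overlap. The log2 ratio was -4.74 (-4.86 to -4.62), and the split of reads between Aldh1a7 and Aldh1a1 was not tested. Aldh6a1, the enzyme of valine breakdown, had the highest level of the list, with a T-type mean of 1888 that one cell of 9112 carried and a T-type median of 417.

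Some genes that work beside Adh5 and Cat had higher levels in T-type, several of them through J162_16. The list for formaldehyde and glutathione had 3 of 5 genes at least 2-fold higher in T-type than in NR, and 2 of 5 higher than in S-type. In either, 0 of 5 were lower. Of all genes 28.4% and 25.7% were higher, and 32.8% and 32.5% lower. Without J162_16 and J163_18 the numbers higher were 2 of 5 and 1 of 5, beside 24.0% and 21.7% of all genes. The median log2 ratio versus S-type went from 0.87 to 0.43. Esd, the hydrolase that follows Adh5 in formaldehyde clearance, had a T-type level of 42668, beside 8831 in S-type and 10913 in NR. J162_16 alone reached 187400, and without it the log2 ratios were 0.64 and 0.33 in place of 2.27 and 1.97. Gclm, which helps make glutathione, was at least 2-fold higher than NR in both T-type (1.11, but 0.20 without J161_9) and S-type (1.08, but 0.49 without J150_3). Of 8 peroxisomal partners of catalase, 3 were at least 2-fold higher and 0 lower in T-type than in S-type, beside 25.7% and 32.5% of all genes. Against NR 4 were higher and 2 lower, beside 28.4% and 32.8%. Without the same 2 cells these were 1 and 2 (12.5% and 25.0%) versus S-type, and 3 and 2 (37.5% and 25.0%) versus NR. Of all genes 21.7% were higher and 36.3% lower versus S-type at that setting, and 24.0% and 36.4% versus NR. Versus S-type both shares of the list were thus below those of all genes. Prdx5, a peroxidase, had log2 ratios of 1.52 versus S-type and 0.42 versus NR, which were 0.68 and -0.42 without J162_16.

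The acetate and acetyl-CoA list was more often lower in T-type than in S-type, as Acss2 was. Of its 10 genes tested, 6 were at least 2-fold lower in T-type than in S-type, where 32.5% of all genes were. Against NR 4 were lower, where 32.8% of all genes were. Without J162_16 and J163_18 these were 6 and 3, beside 36.3% and 36.4% of all genes. The count versus NR was thus near the share of all genes. Acly, which makes acetyl-CoA from citrate, had a T-type mean of 22268 through J162_16 (118700), whereas its T-type median was 3056. Pdha1, a subunit of pyruvate dehydrogenase, differed by under 2-fold in all 4 contrasts. Among the 13 genes that reoxidize NADH, 6 were at least 2-fold higher in T-type than in S-type and 0 lower. Of all genes 25.7% were higher and 32.5% lower. In S-type versus NR 5 were lower and 0 higher, where 22.5% of all genes were lower and 25.1% higher. For T-type versus NR 0 were higher and 1 lower, beside 28.4% and 32.8% of all genes. Without J162_16 and J163_18 the 6 became 5, beside 21.7% of all genes, and the median versus S-type went from 0.86 to 0.18. The number lower in T-type versus NR went from 1 to 5 (38.5%), near the 36.4% of all genes at that setting. Ldhb, a lactate dehydrogenase subunit, ran from 1046 through a median of 5078 to 7512 in S-type and from 7970 through a median of 14790 to 25040 in NR, without overlap (log2 ratio -1.70, -1.71 to -1.68). Mdh1, the cytosolic malate dehydrogenase, differed by under 2-fold in all 4 contrasts.

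Of 8 aldo-keto and carbonyl reductases, 1 was at least 2-fold higher and 2 lower in T-type than in S-type. Of all genes 25.7% and 32.5% were. Of the 8, 3 were higher and 2 lower in M-type than in NR, where 19.8% and 28.1% of all genes were. Akr1a1, which reduces many aldehydes, was the most read with a mean of 9038 normalized counts and stayed under 2-fold in every contrast with all cells, although T-type versus NR went from 0.97 to 1.17 without J186_5. Akr1b10, one of several similar aldo-keto reductases whose reads may be split, was lower than in NR in S-type (-2.48) and M-type (-1.91), with T-type near NR (-0.04). Cyb5 and Cyb5b, cytochromes b5 of the microsome and the mitochondrion, stayed under 2-fold in all 4 contrasts with all cells. Without J186_5 Cyb5 was at 1.15 for M-type versus NR, and without J163_18 Cyb5b was at 1.04 for T-type versus S-type. Over all 59 genes tested in these 8 lists, 16 (27.1%) were at least 2-fold higher and 16 (27.1%) lower for T-type versus S-type. Of all genes 25.7% and 32.5% were. Against NR these numbers were 10 and 14 (16.9% and 23.7%) for T-type, beside 28.4% and 32.8% of all genes. For S-type they were 8 and 11 (13.6% and 18.6%), beside 25.1% and 22.5%. For M-type they were 6 and 13 (10.2% and 22.0%), beside 19.8% and 28.1%. The shares against NR were thus below those of all genes.

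**Figure D4:**
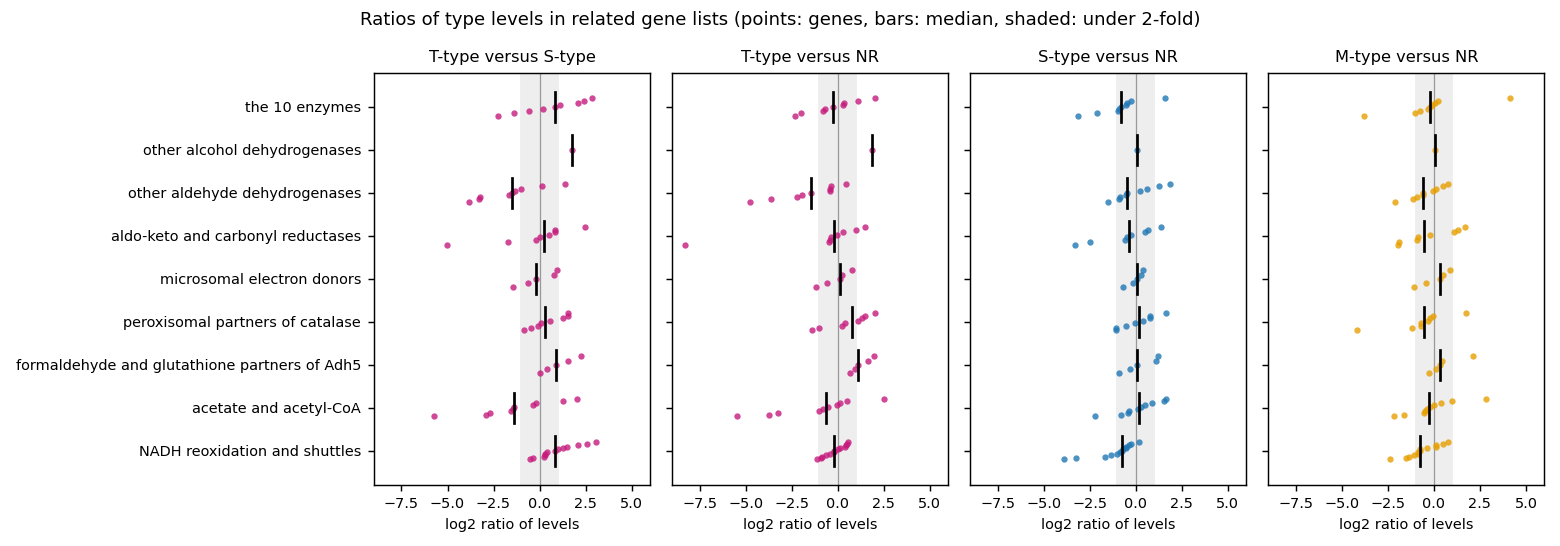
Log2 ratio of type levels for the enzymes and 8 lists of related genes, in 4 contrasts. Points are genes, black bars are the median of a list and the shaded band is under 2-fold. The medians of the other aldehyde dehydrogenases (-1.50) and of the acetate list (-1.40) lie left of the band for T-type versus S-type.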

How the data were processed

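The deposited raw counts of the 22 cells are uniquely aligned exonic reads per gene. The authors made them with VERSE, a modified HTSeq, from trimmed reads that STAR had aligned to GRCm38. Versions and the strand setting are not given in the sources used here. Each cell's RNA had been amplified in 2 rounds as antisense RNA before stranded library construction.

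Size factors were medians of ratios over the 3670 genes read in all cells. Ratios were formed for genes read in at least 5 cells and with more than 3 reads in one of the 2 types, and 3 reads over a type stood in for a level of 0. Cyp2e1 was left out of the ratios by this filter. With each type 1 sample, no test between types was made. Intervals were exact binomial or Poisson ones at 95% (SciPy 1.17.1, NumPy 2.4.6, pandas 2.3.3, Python 3.11.15), and figures used matplotlib 3.10.9. TMM factors came from edgeR 4.0.16 under R 4.3.3. Exon lengths and positions came from GENCODE vM21 on GRCm38, which gave a length for 21817 of 23453 symbols. The ratio step was tested on simulated data.

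The members and the 8 lists (71 of 76 symbols were counted) were chosen with earlier results of these data known. Named beside the 10 enzymes were, in each list, the 2 genes with the highest mean level and any gene past 2-fold whose cells did not overlap. One gene that this rule names is not reported here. Por, Adh1, Adh4, Adh6a and Adh7 were added for their low or missing reads. Aldh1l2, Aldh3b1, Aldh4a1, Aldh5a1, Aldh16a1 and Aldh18a1 were added to show how a count depends on single cells or few reads. For each enzyme read in every cell, the most similar gene at a mean level of at least 10 was named. The alternatives were TMM factors, CPM, thinning to 2937786 reads, medians over cells, a pseudocount of 1, leaving out each cell, no filter, and only genes at a level of 10 or more. Leaving out 2 T-type cells, or 2 cells with reads of both Xist and Y-linked genes, was added after the data were seen. No doublet caller was run. The study aspirated cells singly, but 2 libraries held reads of both Xist and Y-linked genes, so that more than 1 cell in these was not excluded. Calcium recordings were not used here.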

Additional observations from a re-analysis of the deposited data

Results flagged for a closer look

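In 14 of the 39 groups formed by 1 enzyme in 1 type, the highest cell lay far from the others by Dixon's criterion. About 1 in 20 groups would be flagged by chance if values spread evenly about a mean. Amplified counts of single cells need not do so. In the flagged groups of Cyp2e1 and Aldh1b1 the other cells had no read, so any read was enough for a flag. The 14 is therefore not set against that rate, and the flags serve only to point at cells. All values here are normalized counts.

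The NR cell J187_6 stood out for 3 enzymes. It had 9034 for Adh5 where the other NR cells had 1042 to 1846, 1569 for Aldh2 where they had 255 to 537, and 3863 for Acss2 where they had 820 to 1292. The NR cell J183_1 had 485 for Aldh9a1, above 14.8 to 128 in the others.

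The T-type cell J166_25 had 1955 for Aldh9a1, above 5.45 to 553 in the other T-type cells. The M-type cell J172_23 had 815 for Aldh2, above 230 to 317. In S-type, J150_3 had 10110 for Aldh1a1 where the others had 5.19 to 2518, and J154_8 had 2194 for Aldh3a2 where the others had 123 to 847.

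For Aldh1b1 and Cyp2e1 a cell stood out because the rest of its type had no read. Aldh1b1 was at 54.8 in J153_6 of S-type, at 11.5 in J166_25 of T-type and at 15.3 in J183_1 of NR. Cyp2e1, at a single read each, was at 0.641 in J166_25 of T-type, at 0.432 in J176_25 of M-type and at 0.719 in J185_4 of NR.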

How the results depend on the processing

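Of 36 ratios of an enzyme in a contrast, 16 were past 2-fold. Of 310 values of these under the alternatives, 305 had the same sign and 278 were still past 2-fold. Both totals include 16 values with no filter and 16 with only genes at a level of 10 or more. These settings change which genes are kept and not their ratios, so they could not alter these values. With a pseudocount of 1 all 16 values were also still past 2-fold. The totals therefore overstate how far the ratios were put to a test. The exceptions in sign were Aldh1a1 in T-type versus S-type with medians over cells (-0.47), and Aldh1b1 without J153_6, at 1.90 for T-type versus S-type and -2.57 for S-type versus NR. With 1 cell left out at a time, Aldh1b1 ran from -3.31 to 1.90 and from -2.57 to 4.14 in these contrasts. With CPM the median of the enzymes was 0.32 for T-type versus S-type, -0.47 where T-type and -0.67 where S-type was set against NR, and with thinned libraries 0.35, -0.47 and -0.68. Both scalings moved the median of all genes in the T-type contrasts, by -0.37 and -0.34 versus S-type and by -0.40 and -0.35 versus NR. With medians over cells the enzymes' median was 0.23 for T-type versus S-type, -0.38 for S-type versus NR and -0.30 for M-type versus NR, and with TMM factors it was -0.019 for M-type versus NR. Without J153_6 or J174_13 it was 0.95 for T-type versus S-type and -1.04 for S-type versus NR. Enzymes at least 2-fold higher numbered 1 for T-type versus NR with TMM factors, CPM and thinning, 0 for S-type versus NR with thinning, medians or without J153_6, and 0 for M-type versus NR with medians. Enzymes at least 2-fold lower numbered 1 for T-type versus S-type with medians or without J153_6, 4 for T-type versus NR with thinning, 5 for S-type versus NR without J153_6, and 1 for M-type versus NR with TMM factors, CPM, thinning, medians or without J174_13. The cause was not tested. With each cell left out in turn, the medians ran from 0.32 to 1.08, -0.46 to 0.24, -1.04 to -0.43 and -0.69 to 0.035 for T-type against S-type, then T-type, S-type and M-type against NR. The numbers higher ran from 3 to 5, 1 to 2, 0 to 1 and 1 to 2, and the numbers lower from 1 to 3, 2 to 4, 2 to 5 and 1 to 2. No paired analysis was possible because the replicate numbers only follow the order of the samples and no test between types was made. Cyp2e1 had 3 reads in all, and Aldh1b1 had 736, from 5 of the 22 cells. The part of depth in these counts was not tested.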

Other observations

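Beyond the enzymes, 2 genes of acetate handling were picked after their values had been seen. Slc16a1, a transporter of lactate, pyruvate and acetate, was read in every cell and was lowest in T-type. Its T-type cells ran from 8.43 through a median of 209 to 1004 normalized counts and its NR cells from 712 through a median of 3156 to 10390, so that 5 of the 6 T-type cells lay below every NR cell. The log2 ratio was -3.75 (95% counting interval -3.82 to -3.69), and -4.57 to -3.11 with 1 cell left out. For Acss1, the mitochondrial counterpart of Acss2, 5 of the 6 T-type cells lay below every S-type cell, with a T-type median of 2.25 against 632 in S-type and a level of 133 against 1010. The log2 ratio was -2.92, and it was -8.74 without J161_9, which held nearly all of the T-type level, and -2.21 without J150_3.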
